A study of Mus musculus with 6 samples.

Results

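Genes known from pericytes and the vessel wall were followed on 6 Affymetrix mouse arrays of sorted retinal cells. The set holds 10 genes of the 18193 genes measured, namely Pdgfrb, Rgs5, Abcc9, Kcnj8, Acta2, Cspg4, Aspn, Epas1, S1pr3 and Tagln. The platform annotation gives them 23 probe sets of their own, out of 34945 that name 1 gene, and all 23 were examined. The genes were chosen by measured values of these same arrays, namely their log2 differences between the sorted groups and between the Drd4 replicates. Their differences are therefore described here without p-values. Counts of calls among them in the main fit are given beside the share over all genes. Those under other settings have no such share, and none of these values supports a statement about the cell groups.

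All cells came from retinas of C57BL/6 mice at postnatal day 6, were dissociated with papain and were stained for Thy1, a surface protein of retinal ganglion cells. The Hb9 group and the Drd4 group hold cells positive for both GFP and Thy1, from mouse lines in which GFP marks a subset of ganglion cells. The Thy1 group holds Thy1-positive cells without selection for GFP. Each group has 2 arrays, the replicates come from different litters, and the RNA went through 2 rounds of amplification. The labels used here name no transgene allele and do not say whether animals were pooled.

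Pericytes are the contractile support cells wrapped around capillaries, and they sit beside endothelial cells within a shared basement membrane. Endothelial cells release the growth factor PDGF-B, and its receptor Pdgfrb on pericytes draws these cells onto growing vessels. The mouse retina is a common model for this process, since its blood vessels spread across the tissue during the first weeks after birth. Smooth muscle cells of arterioles belong to the same mural lineage and carry more contractile protein, and perivascular fibroblasts lie close by.

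The 6 arrays had median intensities of 45.5 to 47.7, and 10 of 10 measured ganglion cell markers lay above background on every array. As a measure of background, the highest of 27 control probe sets for Bacillus transcripts was taken on each array, and it stood at log2 intensities of 4.95 to 5.38. Between 68.2% and 78.9% of all genes lay above this reference. Intensities are on a log2 scale below, a difference of 1 being 2-fold, and errors are SD for levels and standard errors of the limma fit for differences, with n = 2 arrays in each group. The fit shares 1 spread over the 3 groups, so a wide pair of replicates in 1 group widens the errors of all comparisons. Since these are bulk samples, fewer cells of a type and less RNA per cell cannot be told apart. Probe sets differ in their affinity, so levels of different genes are not ranked.

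Every gene of the set read lower on both Hb9 arrays and on both Drd4 arrays than on either Thy1 array. Arrays fell apart in this way, lower in the line, for 21.0% of all genes in Hb9 and 19.3% in Drd4. The median log2 difference over the 10 genes was -2.19 for Hb9 minus Thy1 and -3.91 for Drd4 minus Thy1, whereas the medians over all genes were 0.04 and 0.02. Summed over the brightest probe set of each gene, the intensity was 9532 and 11007 on the Thy1 arrays and 2301 and 1827 on the Hb9 arrays. It was 1282 on Drd4 replicate 1 and 322 on Drd4 replicate 2, so the array of lowest signal stood well apart from its own replicate. Of these sums Rgs5 alone gave 5374 and 6125 on the Thy1 arrays, 1423 and 1066 on the Hb9 arrays, and 725 and 32.2 in Drd4. Both comparisons use the same Thy1 arrays.

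**Figure D1:**
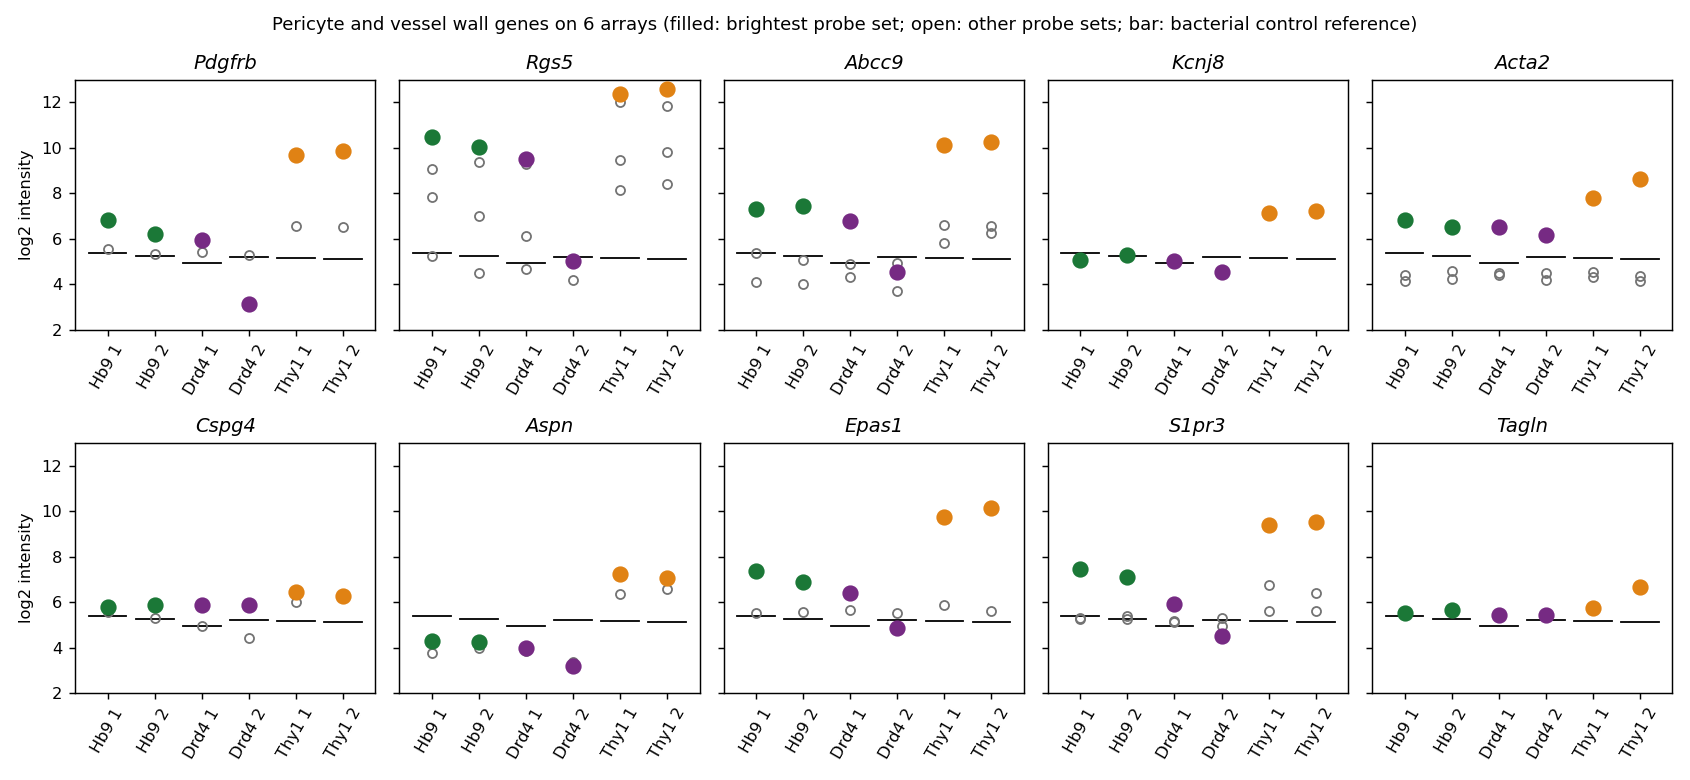
Log2 intensity (vertical axis) of the 10 genes on each of the 6 arrays (horizontal axis), with the brightest probe set filled and the others open. The short bars give the bacterial control reference of each array, and 7 of the 10 genes lie at or below it on Drd4 replicate 2.

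By the limma fit, which adjusts over all 18193 genes at 0.05, 7 of the 10 genes were called lower in Hb9 than in Thy1, where 3.19% of all genes were called lower. In Drd4 the number was 8 of 10, beside 3.96% of all genes. Tagln and Cspg4 were called in neither comparison, and Rgs5 was not called in Hb9. Under the 17 alternatives Cspg4 was called in 7 for Hb9 and in 1 for Drd4, Rgs5 in 3 for Hb9, and Tagln in both comparisons without Thy1 replicate 1. These counts repeat the choice of the genes and nothing is read from them. With robust moderation 5 of the 10 were called in each comparison, Pdgfrb and Abcc9 being lost in both and Rgs5 in Drd4. The Hb9 call of Pdgfrb was lost when any single Hb9 or Thy1 array was left out, that of Abcc9 when Hb9 replicate 1 or Thy1 replicate 1 was, and the Drd4 call of Rgs5 when either Thy1 array was.

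Pdgfrb encodes the receptor for PDGF-B that defines pericytes. Its brightest probe set (1436970_a_at) read 6.82 and 6.20 on the Hb9 arrays, 5.93 and 3.14 on Drd4 replicates 1 and 2, and 9.69 and 9.86 on the Thy1 arrays. The Thy1 readings were far above all others, and Drd4 replicate 2 was the only array below background. The difference was -3.27 ± 0.66 for Hb9 minus Thy1 and -5.24 ± 0.66 for Drd4 minus Thy1. The second probe set (1417148_at) was dimmer, at 5.54 and 5.33, 5.42 and 5.27, and 6.54 and 6.52 in the same order. It gave the same order of groups with a smaller step of -1.10 ± 0.15 in Hb9 and -1.19 ± 0.15 in Drd4, and its Drd4 replicates lay close together. On the brighter probe set Drd4 replicate 1 alone stood -3.84 from the Thy1 mean. Replicate 2, taken at its background reference, stood at -4.58 or lower, so the Drd4 mean includes a reading that is only a bound.

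Rgs5 encodes a regulator of G protein signalling that is widely used as a pericyte marker. On its brightest probe set (1417466_at) it read 10.47 and 10.06 in Hb9, 9.50 and 5.01 in Drd4, and 12.39 and 12.58 in Thy1. The Hb9 arrays and Drd4 replicate 1 thus lay between the Thy1 level and background, and Drd4 replicate 2 lay at background. The difference was -2.22 ± 1.02 for Hb9 minus Thy1 and -5.23 ± 1.02 for Drd4 minus Thy1. Both errors reflect mainly the Drd4 pair, since replicate 1 minus 2 was 0.42 in Hb9, -0.19 in Thy1 and 4.49 in Drd4. Against the Thy1 mean, Drd4 replicate 1 alone stood at -2.98, and replicate 2 at its reference at -7.29 or lower. Probe set 1420941_at repeated the split between the Drd4 arrays, with 9.30 and 5.13, beside 9.09 and 9.40 in Hb9 and 12.002 and 11.84 in Thy1. Probe set 1420940_x_at read 7.85 and 6.99, 6.14 and 4.91, and 9.45 and 9.82. The fourth, 1420942_s_at, was at or below background on all Hb9 and Drd4 arrays and read 8.12 and 8.41 in Thy1, which makes it at least 7.72-fold lower in Hb9 and at least 9.16-fold lower in Drd4. A suffix of _s_at or _x_at marks probe sets that can match transcripts of more than a single gene.

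Abcc9 and Kcnj8 encode both parts of the ATP-sensitive potassium channel of pericytes and vascular smooth muscle, the regulatory subunit SUR2 and the pore Kir6.1. They are neighbouring protein-coding genes in the mouse RefSeq annotation. Abcc9 (1435752_s_at) read 7.31 and 7.43 in Hb9, 6.77 and 4.54 in Drd4, and 10.15 and 10.27 in Thy1. The Hb9 pair was tight and the Drd4 pair was not, and the differences against Thy1 were -2.84 ± 0.52 and -4.55 ± 0.52 (-3.44 for Drd4 replicate 1 alone, and -5.01 or lower for replicate 2, which was below background). The other Abcc9 probe sets lay at or below background on all 4 arrays of the GFP lines. On 1435751_at the Thy1 arrays read 6.60 and 6.57, at least 2.40-fold above Hb9 and at least 2.85-fold above Drd4. On 1420408_a_at they read 5.81 and 6.24, at least 1.63-fold and 1.94-fold above.

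Kcnj8 has a single probe set (1418142_at). It stood at 5.05 and 5.28 in Hb9, 5.04 and 4.56 in Drd4, and 7.15 and 7.21 in Thy1. Of the 4 readings in the GFP lines 2 lay above the reference of their arrays, and both Thy1 readings lay well above theirs. The difference was -2.01 ± 0.18 in Hb9 and -2.38 ± 0.18 in Drd4. Of 5 other genes of the channel family, among them Kcnj11 and Abcc8, which form the corresponding channel of neurons and beta cells, limma called 0 in either comparison with Thy1. At an unadjusted p under 0.05 the count was 1 in Hb9 and 0 in Drd4. Kcnj11 read 7.99 to 8.21 on all 6 arrays.

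S1pr3 encodes a receptor for sphingosine 1-phosphate, a lipid signal of blood and vessel wall. Its probe set 1438658_a_at read 7.46 and 7.13 in Hb9, 5.91 and 4.50 in Drd4, and 9.42 and 9.50 in Thy1. Here both Drd4 arrays lay below both Hb9 arrays by more than 1, and the groups did not overlap in any comparison. The difference was -2.17 ± 0.36 for Hb9 minus Thy1, -4.26 ± 0.36 for Drd4 minus Thy1 (-3.55 for replicate 1 alone, and -4.26 or lower for replicate 2, which was below background) and 2.09 ± 0.36 for Hb9 minus Drd4. Probe set 1437173_at read 5.27 and 5.27, 5.16 and 4.95, and 6.74 and 6.40, and 1460661_at read 5.28 and 5.39, 5.11 and 5.32, and 5.60 and 5.59. Of 11 other genes of the sphingosine 1-phosphate pathway limma called 0 against Thy1, with 2 at an unadjusted p under 0.05 in Hb9 and 1 in Drd4. S1pr1, the receptor of endothelial cells, read 6.26 and 6.08 in Thy1 and 5.63 to 5.84 on the other arrays (adjusted p = 0.0796 in Hb9).

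Epas1 encodes HIF-2 alpha, a hypoxia-inducible transcription factor of vascular cells. Its probe set 1435436_at read 7.37 and 6.87 in Hb9, 6.41 and 4.86 in Drd4, and 9.75 and 10.15 in Thy1. The Drd4 arrays again stood apart, with replicate 2 below background, and the differences against Thy1 were -2.83 ± 0.40 and -4.32 ± 0.40 (-3.54 for Drd4 replicate 1 alone and -4.75 or lower for replicate 2). The second probe set (1449888_at) differed little, at 5.51 to 5.64 on the 4 arrays of the GFP lines and at 5.87 and 5.63 in Thy1. Of 18 other hypoxia pathway genes, limma called 0 in Hb9, with 3 at an unadjusted p under 0.05. In Drd4 the metabolic stress gene Ndrg1 rose by 2.59 ± 0.20 (adjusted p = 6.12e-05) and the prolyl hydroxylase gene Egln3, below background in Drd4, was at least 1.17-fold lower (adjusted p = 0.031). Egln3 no longer passed with Drd4 replicate 1 left out (adjusted p = 0.15), with a Thy1 replicate left out (0.139 and 0.148) or with an Hb9 replicate left out (0.0521 and 0.0523). The same held with quantile normalisation (0.0515), every probe set as a row (0.0507) or only the compared groups (0.0525). Hif1a, the related factor of most cells, read 10.45 to 11.01 on all 6 arrays.

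Aspn encodes asporin, a small leucine-rich proteoglycan of connective tissue. Both of its probe sets lay below background on every Hb9 and Drd4 array. On 1448421_s_at the values were 4.29 and 4.25, 3.97 and 3.17, and 7.22 and 7.05 in Hb9, Drd4 and Thy1, and on 1416652_at they were 3.74 and 3.98, 3.86 and 3.35, and 6.35 and 6.55. The Thy1 level was therefore at least 3.53-fold above Hb9 and at least 4.18-fold above Drd4 on the brighter probe set. Among 7 other proteoglycans of the family biglycan, Bgn, fell by 1.51 in Hb9 (SE 0.18, adjusted p = 0.0018) and by 2.12 in Drd4 (SE 0.18, adjusted p = 0.000107), and the other 6 did not pass.

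Acta2 and Tagln encode smooth muscle actin and transgelin (SM22), contractile proteins of smooth muscle cells. Acta2 (1416454_s_at) read 6.81 and 6.51 in Hb9, 6.51 and 6.18 in Drd4, and 7.81 and 8.64 in Thy1. Its Drd4 replicates differed by only 0.34, and all 4 arrays of the GFP lines stayed above background. The difference was -1.56 ± 0.26 in Hb9 and -1.88 ± 0.26 in Drd4. Probe sets 1444105_at and 1456658_at lay at or below background on all 6 arrays. Of the other muscle actins, Acta1 stood at 5.88 to 6.61, Actc1 at 5.27 to 5.46 and Actg2 at 4.29 to 4.86 over the 6 arrays, and none of these 3 passed against Thy1. Of 7 actins and transgelins related to both genes only Tagln2 passed, lower in Hb9 (adjusted p = 0.0449) and in Drd4 (0.0384), and both calls were lost when any single array of the compared groups was left out (adjusted p of 0.0679 or more).

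Tagln (1423505_at) read 5.52 and 5.67 in Hb9, 5.42 and 5.42 in Drd4, and 5.75 and 6.65 in Thy1. Only Thy1 replicate 2 stood apart, and the difference was -0.60 ± 0.24 in Hb9 and -0.78 ± 0.24 in Drd4. Without Thy1 replicate 2 these were -0.15 and -0.33. The Thy1 replicates differed by 0.91 in Tagln and by 0.83 in Acta2, in both genes with replicate 2 higher. Of all genes, 0.539% and 0.775% had replicate differences as large in the Thy1 group.

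Cspg4 encodes NG2, a proteoglycan on pericytes and on oligodendrocyte precursors. Its probe set 1450944_at read 5.80 and 5.87 in Hb9, 5.88 and 5.88 in Drd4, and 6.44 and 6.27 in Thy1, a small step of -0.52 ± 0.14 and -0.48 ± 0.14. On 1423341_at the values were 5.56 and 5.32, 4.93 and 4.42, and 6.00 and 6.21, with Drd4 at or below background and Thy1 at least 2.05-fold above it. Cspg4 was the only gene of the set whose brightest probe set read no lower in Drd4 than in Hb9.

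The regulatory sequence before the start of 4 of these genes is shown, Acta2 as a known target of serum response factor, Abcc9 and Kcnj8 as neighbouring genes of 1 channel, and Rgs5 as the gene with the largest split between the Drd4 arrays. RefSeq (GRCm38.p6) gave a promoter for 7 of the 10 genes. Each sequence is the 250 bases that end just before the annotated start, on the gene's own strand, and capitals mark motif matches. They lie at chr19:34255374-34255623 (minus strand) for Acta2, chr6:142702275-142702524 (minus) for Abcc9, chr6:142571615-142571864 (minus) for Kcnj8 and chr1:169655251-169655500 (plus) for Rgs5.
Acta2: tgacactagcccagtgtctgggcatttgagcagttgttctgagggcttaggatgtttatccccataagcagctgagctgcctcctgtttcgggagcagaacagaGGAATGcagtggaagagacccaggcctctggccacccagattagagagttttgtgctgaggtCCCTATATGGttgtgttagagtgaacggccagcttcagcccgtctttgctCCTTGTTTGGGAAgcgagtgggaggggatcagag
Abcc9: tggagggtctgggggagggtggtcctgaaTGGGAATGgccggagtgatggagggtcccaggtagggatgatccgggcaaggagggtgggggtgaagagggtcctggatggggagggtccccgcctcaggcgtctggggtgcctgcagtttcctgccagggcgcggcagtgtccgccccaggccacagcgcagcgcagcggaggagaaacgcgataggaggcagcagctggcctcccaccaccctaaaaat
Kcnj8: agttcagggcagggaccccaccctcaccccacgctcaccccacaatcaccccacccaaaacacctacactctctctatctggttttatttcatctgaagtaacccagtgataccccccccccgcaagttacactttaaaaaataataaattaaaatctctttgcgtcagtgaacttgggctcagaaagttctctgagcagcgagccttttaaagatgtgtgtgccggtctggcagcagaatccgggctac
Rgs5: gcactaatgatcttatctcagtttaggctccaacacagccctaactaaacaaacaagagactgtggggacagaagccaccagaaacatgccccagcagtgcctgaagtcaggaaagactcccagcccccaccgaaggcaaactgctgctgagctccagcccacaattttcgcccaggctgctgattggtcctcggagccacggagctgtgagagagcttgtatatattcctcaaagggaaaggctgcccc

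Both strands were searched for the CArG box of serum response factor with at most 1 other base in its A/T core, for GGAATG (TEAD factors), for TGGGAA (RBPJ, the factor of Notch signalling) and for ACGTG (the core bound by hypoxia-inducible factors). Any promoter of the set on chr18 was left out of this search, so it may not cover all 7, whereas the shares over all windows had no such limit. Acta2 held 2 CArG matches, which start 84 and 34 bases before the annotated start. No other searched promoter of the set had such a match. Of all 32851 promoter windows of this length, 8.59% held a match. GGAATG occurred in Acta2 and Abcc9, beside 12.6% of all windows, and TGGGAA in the same 2 genes, beside 21.6%. In Abcc9 these 2 motifs overlap, and in Acta2 TGGGAA overlaps the nearer CArG match. Among the searched promoters of the set ACGTG occurred in Aspn alone, beside 16.6% of all windows. The windows of Kcnj8 and Rgs5 held none of the 4 motifs.

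The signal left in the GFP lines differed from gene to gene and from array to array. As a share of the Thy1 mean intensity, with no background subtracted, the 10 genes had 12.9% to 67.8% on Hb9 replicate 1 (median 23.8%) and 8.37% to 71.2% on Hb9 replicate 2 (median 19.2%). On Drd4 replicate 1 the range was 6.97% to 71.6% (median 11.9%), and on Drd4 replicate 2 it was 0.56% to 71.6% (median 4.80%). Rgs5 went from 24.8% and 18.5% in Hb9 to 12.6% and 0.56% in Drd4, and Pdgfrb from 12.9% and 8.37% to 6.97% and 1.003%. On Drd4 replicate 2, 7 of the 10 readings lay at or below the reference, which itself equals 0.638% of the Thy1 mean for Rgs5, 4.18% for Pdgfrb, 25.3% for Kcnj8 and 26.0% for Aspn, so that their lower shares are not measured levels. For Tagln and Cspg4, which read above it, the reference equals 47.5% and 44.7%, so their shares are not measures of signal above background.

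**Figure D2:**
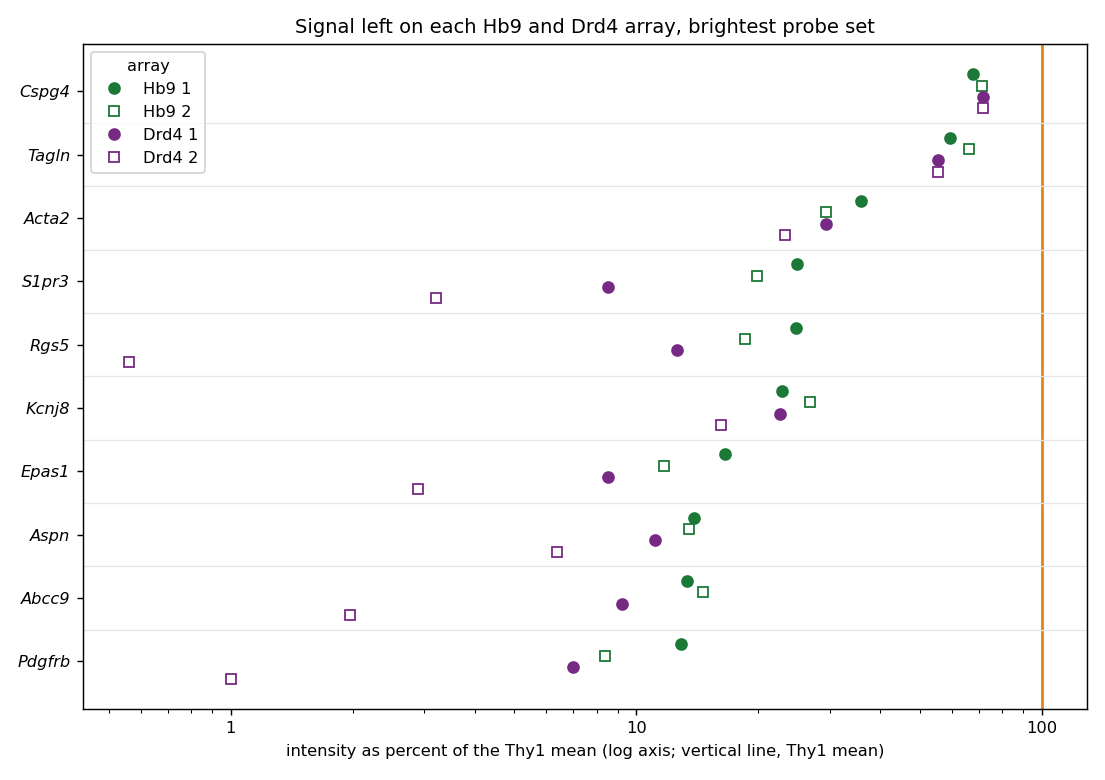
Intensity of each gene on the 4 arrays of the GFP lines, as percent of its mean on the Thy1 arrays (horizontal log axis), with circles for replicate 1 and squares for replicate 2. Rgs5 spans 24.8% on Hb9 replicate 1 to 0.56% on Drd4 replicate 2, whereas Cspg4 stays between 67.8% and 71.6%. The background reference of Drd4 replicate 2 equals 0.638% for Rgs5 and 44.7% for Cspg4.

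The Drd4 replicates lay far apart in several of these genes. Since 7 of the 10 readings on replicate 2 were at or below background, each reading was also raised to the reference of its own array, which turns those differences into bounds. Rgs5 was then at least 19.8-fold higher on replicate 1, a difference of 4.31 or more and the largest of all 18193 genes treated in this way. The bounds were 1.58 for Abcc9, 1.21 for Epas1, 0.74 for Pdgfrb and 0.71 for S1pr3, and Aspn and Kcnj8 gave none. As read, without the reference, the differences were 4.49 for Rgs5, 2.80 for Pdgfrb, 2.23 for Abcc9, 1.55 for Epas1 and 1.41 for S1pr3. Acta2, Tagln and Cspg4, above background on both arrays, differed by 0.34, 0.0055 and 0.00012. With readings raised to the reference, 3 of the 10 genes and 62 of all genes were at least 2-fold higher on replicate 1, and 15 of all genes on replicate 2. As read, these numbers were 5, 80 and 17. Between Hb9 replicates the genes went both ways, 6 higher and 4 lower on replicate 1, by at most 0.62. Microglial markers moved with this split. Their summed intensity over 13 measured genes was 3094 on Drd4 replicate 1 and 1146 on replicate 2, and their part in the result was not tested.

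**Figure D3:**
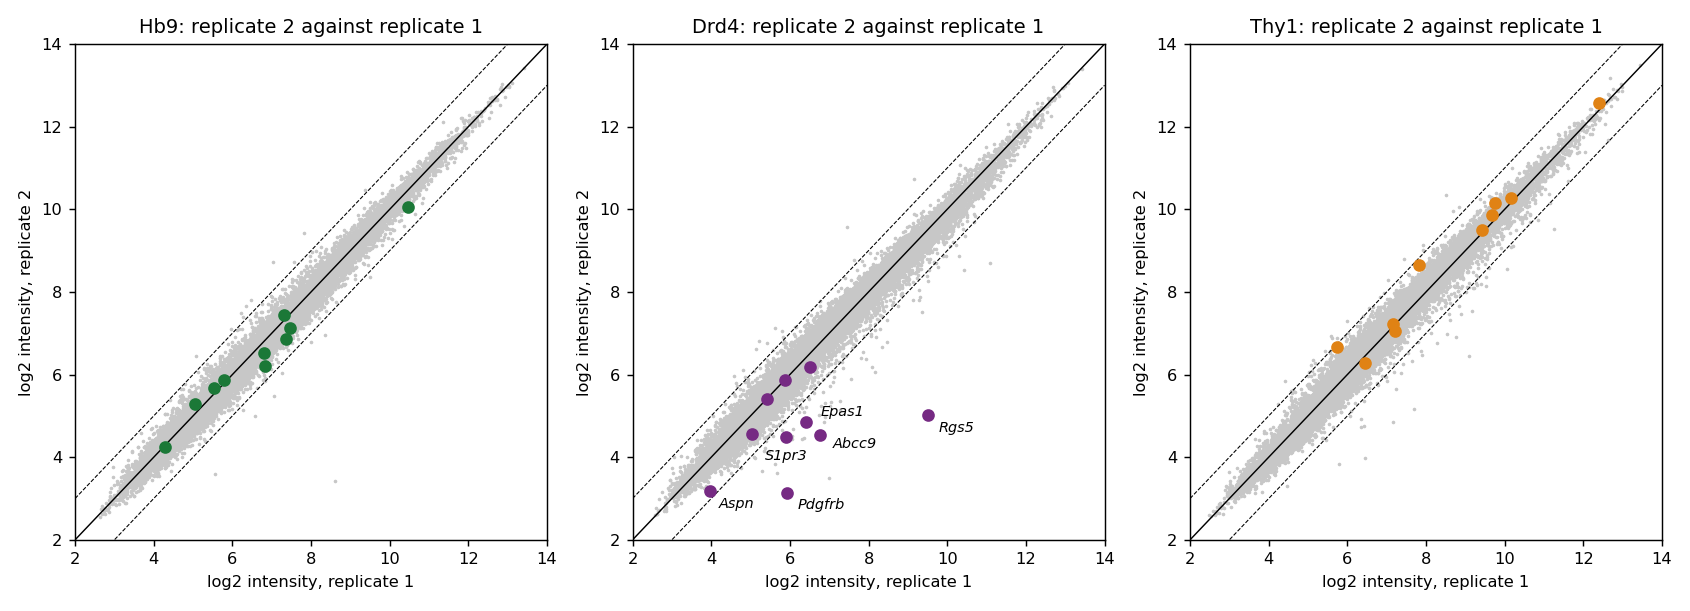
Log2 intensity of all 18193 genes on replicate 2 (vertical axis) against replicate 1 (horizontal axis) in each group, with the 10 genes coloured and dashed lines at a 2-fold difference. In Drd4 5 of the 10 genes, all 5 with replicate 2 readings at or below background, lie beyond the line on the side of replicate 1 (3 with readings raised to the reference), and in Hb9 and Thy1 none does.

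Between the lines, 9 of the 10 genes read higher on both Hb9 arrays than on both Drd4 arrays, as did 30.6% of all genes. Of the 9, Aspn lay below background on every Hb9 and Drd4 array, and Acta2 was separated only by 6.51479 against 6.51435. Of the 23 probe sets, 13 were higher in this way, and the median over the 23 was 0.32. The median over the 10 genes, as read, was 1.09 for Hb9 minus Drd4, beside 0.04 over all genes. It includes 7 readings at or below background on Drd4 replicate 2. The step differed between the Drd4 arrays. Drd4 replicate 1 lay below the Hb9 mean by a median of 0.44, and only S1pr3 was lower by more than 1 (-1.39). On Drd4 replicate 2, with readings raised to the reference, 5 of the 10 genes were lower by more than 1, with Rgs5 at -5.07 or lower, Abcc9 at -2.17 or lower and Pdgfrb at -1.31 or lower. Of the 10 genes limma called 1 higher in Hb9, S1pr3, where 4.06% of all genes were called higher and 2.06% lower. The genes were chosen on these values too, and nothing is read from this count. Without Drd4 replicate 1 it called 6, without Drd4 replicate 2 it called 2, and without Hb9 replicate 1 it called 0.

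Other genes of mural cells were taken from a list that excludes the 10. All lists used here were chosen with earlier results of these data known. Their counts and p-values describe these arrays and give no independent support. Of 25 measured pericyte genes 13 fell in Hb9 and 16 in Drd4, where 3.19% and 3.96% of all genes were called lower. Of the 25, 0 rose, where 3.52% of all genes were called higher in Hb9 and 1.51% in Drd4. The same shares of all genes stand beside the counts of each list below. The list medians were -0.64 and -1.14. Vtn, the gene of vitronectin, was at or below background in both lines, at least 3.12-fold lower in Hb9 (adjusted p = 0.000323) and at least 3.69-fold lower in Drd4 (6.55e-05). Higd1b read 5.34 and 5.27 in Hb9, 4.58 and 4.08 in Drd4, and 7.83 and 7.96 in Thy1. Its Hb9 readings lay next to the references of 5.38 and 5.25, replicate 1 below and replicate 2 above. Higd1b fell by 2.59 in Hb9 (SE 0.18, adjusted p = 0.000198) and was at least 7.07-fold lower in Drd4 (adjusted p = 8.95e-06). The phosphodiesterase gene Pde5a fell by 3.03 in Hb9 (SE 0.42, adjusted p = 0.00338). Zic1, a zinc finger transcription factor gene that neurons can express too, fell by 4.14 in Drd4 (SE 0.28, adjusted p = 3.49e-05). The Hb9 count was 6 without Hb9 replicate 1 and 8 without Hb9 replicate 2.

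In this list 4 genes were higher in Hb9 than in Drd4, namely Higd1b, Zic1 (2.73 ± 0.28, adjusted p = 0.000356) and both subunits of soluble guanylate cyclase, the receptor of nitric oxide. Gucy1a1 was higher by 1.96 ± 0.22 (adjusted p = 0.000647) and Gucy1b1 by 1.72 ± 0.17 (adjusted p = 0.000256). With Hb9 replicate 1 left out, Higd1b no longer passed (adjusted p = 0.0761). Gucy1a1 and Gucy1b1 did not pass in Hb9 against Thy1 (adjusted p = 0.537 and 0.983).

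Contractile genes divided into a group that fell and a group that did not pass. Of 22 measured, 7 fell in Hb9 and 8 in Drd4, and 0 rose, with medians of -0.27 and -0.29. Mylk (myosin light chain kinase) read 7.95 and 8.07 in Hb9, 7.56 and 5.88 in Drd4, and 10.34 and 10.38 in Thy1. It fell by 2.35 in Hb9 (SE 0.40, adjusted p = 0.00957) and fell by 3.64 in Drd4 (SE 0.40, adjusted p = 0.000506). Cald1 (caldesmon) had Drd4 replicates at 6.89 and 4.98, the second below background. Cald1 fell by 2.45 in Hb9 (SE 0.47, adjusted p = 0.0141) and by 4.23 in Drd4 (SE 0.47, adjusted p = 0.000486), the latter resting in part on a bound. Myl9, a myosin light chain, was at least 4.32-fold lower in Hb9 (adjusted p = 0.000452) and at least 5.13-fold lower in Drd4 (adjusted p = 3.92e-05). Synpo2, below background in Drd4, was at least 1.88-fold higher in Hb9 than in Drd4 (adjusted p = 0.00188). Myh11 and Cnn1, which mark mature smooth muscle, did not pass, with Myh11 at 5.29 to 5.70 and Cnn1 at 4.29 to 4.66 over the 6 arrays. In Hb9, Mylk no longer passed with Hb9 replicate 1 (adjusted p = 0.0524) or Thy1 replicate 1 (0.057) left out, and Cald1 with Hb9 replicate 2 (0.0698) or a Thy1 replicate (0.0619 and 0.0527) left out. With robust moderation neither passed in Hb9 (adjusted p = 0.0643 and 0.102). The Hb9 count was 3 without Hb9 replicate 2 or Thy1 replicate 1.

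Of 15 measured genes of fibroblasts, 6 fell in each line and 0 rose. Col3a1, a fibrillar collagen, read 5.41 and 5.08 in Hb9, 5.38 and 4.22 in Drd4, and 8.39 and 8.93 in Thy1, and fell by 3.41 in Hb9 (SE 0.32, adjusted p = 0.000588) and by 3.86 in Drd4 (SE 0.32, adjusted p = 0.000103). Postn, the gene of periostin, fell by 2.28 in Hb9 (SE 0.21, adjusted p = 0.000528) and by 3.63 in Drd4 (SE 0.21, adjusted p = 1.49e-05). It was higher in Hb9 than in Drd4 by 1.35 ± 0.21 (adjusted p = 0.00449). Postn read 4.99 and 4.36 in Drd4. Replicate 2 lay below background there, and for Col3a1 it did so in both lines. The Drd4 differences of both genes and the Hb9 fall of Col3a1 thus rest in part on bounds. Col6a3 fell by 1.33 in Drd4 (adjusted p = 0.00623), and Ogn, near background in Thy1 and below it in Hb9, was at least 1.02-fold lower in Hb9 (adjusted p = 0.000958). Col1a1, Dcn and Lum did not pass in either line. Without Hb9 replicate 2 the Hb9 count was 3, and without Hb9 replicate 1 or Thy1 replicate 1 it was 4.

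Of 32 measured endothelial genes, 2 fell in Hb9, Flt1 and Cd34, and 2 fell in Drd4, Flt1 and Emcn, with 0 higher and medians of -0.10 and -0.12. Of all genes, 3.19% were called lower in Hb9 and 3.96% in Drd4. Pecam1 and Cldn5, which define endothelial cells, lay below the reference on all 6 arrays, and Cdh5 lay above it on 1, Thy1 replicate 1. Of the 32 genes, 13 and 15 lay above it on the Hb9 arrays, 19 and 16 in Drd4 and 20 and 18 in Thy1. Of all genes, 68.2% to 78.9% lay above it. Flt1, a VEGF receptor, fell by 0.98 in Hb9 (SE 0.17, adjusted p = 0.00917) and by 1.06 in Drd4 (SE 0.17, adjusted p = 0.00377). Cd34 was at least 1.62-fold lower in Hb9 (adjusted p = 0.0153) and Emcn at least 1.23-fold lower in Drd4 (adjusted p = 0.0197). Flt1 and Cd34 no longer passed in Hb9 with Hb9 replicate 2 (adjusted p = 0.0649 and 0.0635) or Thy1 replicate 1 (0.0707 and 0.128) left out, nor did Cd34 with Hb9 replicate 1 left out (0.0763). Emcn no longer passed in Drd4 with Drd4 replicate 2 (0.0724) or Thy1 replicate 2 (0.122) left out. Whether the endothelial and the pericyte list differ was not tested.

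**Figure D4:**
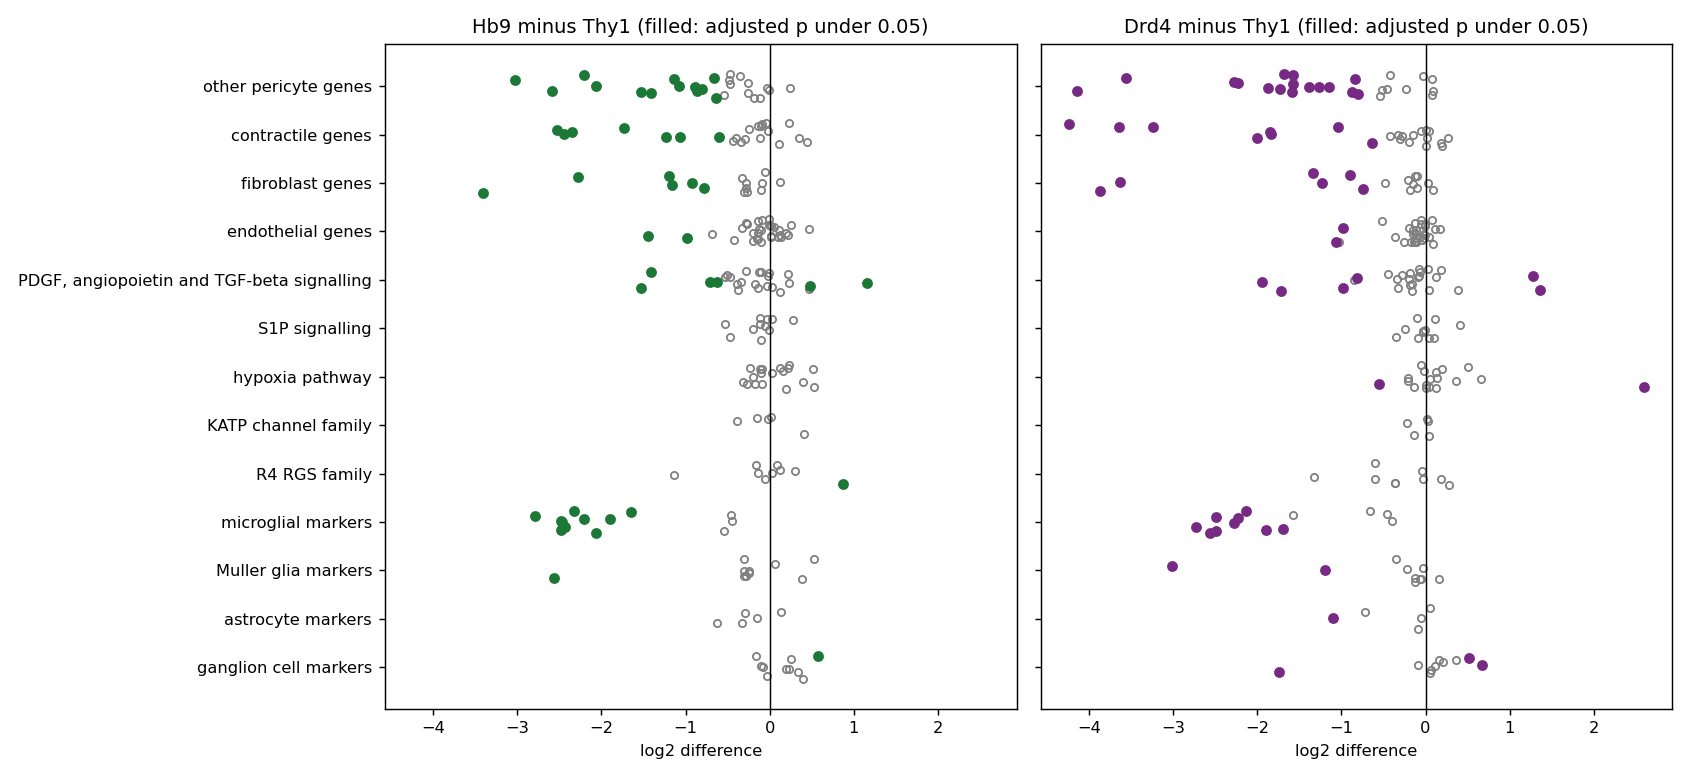
Log2 difference (horizontal axis) of each gene of 13 lists for Hb9 minus Thy1 and Drd4 minus Thy1, filled where the adjusted p of limma is under 0.05. Filled points of the pericyte, contractile, fibroblast and microglial lists lie to the left of 0, and the endothelial list has 2 filled points in each panel.

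Signals that act on mural cells went both ways. Pdgfb, the ligand of Pdgfrb, read 5.71 to 5.98 on the 6 arrays and did not pass. Of 25 genes of PDGF, angiopoietin and TGF-beta signalling 4 fell and 2 rose in each line, with medians of -0.14 and -0.17. The Hb9 counts were 1 and 1 without Hb9 replicate 1, and 1 and 0 without Hb9 replicate 2 or Thy1 replicate 1. Tgfbr2, a TGF-beta receptor, fell by 1.53 in Hb9 (SE 0.25, adjusted p = 0.00836) and by 1.72 in Drd4 (SE 0.25, adjusted p = 0.0028). Id3, a target of BMP signalling, was at or below background in both lines, at least 1.34-fold lower in Hb9 (adjusted p = 0.0221) and at least 1.59-fold lower in Drd4 (adjusted p = 0.00338). Tgfb2 rose in Hb9 by 1.15 ± 0.22 (adjusted p = 0.0134). Tgfbr3 rose in Drd4 by 1.36 ± 0.16 (adjusted p = 0.000599) and had a difference of -2.07 for Hb9 minus Drd4 (adjusted p = 5.02e-05). In Hb9 the Tgfbr2 call was lost without Thy1 replicate 1 (0.0579), the Id3 call without Hb9 replicate 1 (0.0937) or 2 (0.0801) or with robust moderation (0.0573), and the Tgfb2 call without Hb9 replicate 2 (0.0825) or Thy1 replicate 1 (0.0645), all adjusted p-values. With the mean of all probe sets the Tgfbr2 call was lost in both lines (adjusted p = 0.0634 and 0.0639).

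Of 9 measured relatives of Rgs5 in the R4 family of RGS proteins, Rgs2 rose in Hb9 by 0.87 ± 0.18 (adjusted p = 0.0207), and this call was lost when any single Hb9 or Thy1 array was left out (adjusted p = 0.112 and 0.0998 without Hb9 replicates 1 and 2, and 0.104 and 0.0512 without Thy1 replicates 1 and 2) and with the mean of all probe sets (0.24). In Drd4 limma called 0 of them, with 3 at an unadjusted p under 0.05. Rgs4, a neuronal member, read 9.14 on Drd4 replicate 1 and 10.72 to 11.41 on the other 5 arrays.

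Genes of other cell types were set beside the vessel wall genes. Of 13 measured microglial markers 10 fell in Hb9 and 9 in Drd4, and their summed intensity was 11614 and 6620 on the Thy1 arrays against 1748 and 2110 in Hb9. The complement gene C1qa fell by 2.79 in Hb9 (SE 0.38, adjusted p = 0.00331) and by 2.50 in Drd4 (SE 0.38, adjusted p = 0.00341). Between the Thy1 arrays the sum was higher on replicate 1, as were the sums of the other pericyte genes (8212 and 6409) and endothelial genes (2137 and 2010). The sums of the 10 genes (9532 and 11007), contractile genes (5439 and 6592) and fibroblast genes (1502 and 1768) were higher on replicate 2. Of 10 Muller glia markers Apoe fell in both lines (adjusted p = 0.00677 and 0.00162) and Car2 in Drd4 (0.00372), and the Hb9 call of Apoe was lost without Thy1 replicate 1 (0.0517) and with robust moderation (0.059). Of 5 astrocyte markers Fabp7 passed in Drd4 (adjusted p = 0.0167), and was not called without Drd4 replicate 1 (0.0505) or Thy1 replicate 2 (0.13). The summed intensity of 10 ganglion cell markers was 29371 and 29575 on the Thy1 arrays and 31435 to 33666 on the other 4. Of these markers Nefm rose in Hb9 (adjusted p = 0.0206), Nefm and Thy1 rose in Drd4 (0.00695 and 0.0149), and Isl1 fell in Drd4 (3.49e-05). Nefm no longer passed in Hb9 with Hb9 replicate 1 (0.215) or a Thy1 replicate (0.07 and 0.0547) left out, nor with quantile normalisation (0.0549). The Thy1 call in Drd4 was lost without Drd4 replicate 2 (0.0841) or either Thy1 replicate (0.0601 and 0.0545) and without a trend (0.0542). The summed intensity of 2 measured erythrocyte markers ranged from 57.7 to 68.2. The part of other cells in the vessel wall result was not tested. Without Thy1 replicate 1 the microglial counts were 5 in Hb9 and 6 in Drd4, and without Hb9 replicate 1 the Hb9 count was 6. With robust moderation both counts were 5.

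The genes whose pattern over the 6 arrays was most like the mean profile of the 10 were found among 317 genes that spanned at least 2 on the log2 scale. Left out of the 317 were clone names and every name that opens with a capital letter followed by a digit, such as C1qb. The profile, centred on its mean, was -0.22 and -0.38 on the Hb9 arrays, -0.78 and -2.19 on the Drd4 arrays, and 1.66 and 1.91 on the Thy1 arrays. The 10 genes closest to it by Pearson's r had values from 0.985 to 0.999, a description over 6 arrays that all these genes share. They were Serpinh1 (a collagen chaperone), Mylk, Cald1, Nid1 (nidogen, of basement membranes), the transcription factor gene Ets1, the Notch ligand gene Jag1, Gng11 (a G protein subunit), Naalad2, the transcription factor gene Runx1 and Postn. Ets1 read 6.64 and 6.54 in Hb9, 6.31 and 4.43 in Drd4, and 9.41 and 9.37 in Thy1. Serpinh1, the closest, read 7.43 and 7.36, 6.94 and 5.99, and 8.75 and 9.03, which is the order of the arrays in the profile.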

How the data were processed

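A set of 6 hybridisations of amplified RNA to an Affymetrix mouse array was analysed, with groups taken from the sample labels and replicates from different litters, per the series text. The authors deposited 1 linear intensity per probe set and array, with software and normalisation of these intensity values not given in the sources used here. Values were taken to log2 without further scaling. Of 45101 probe sets, 34945 name 1 gene in the platform annotation, 932 several and 9160 none, and only the first kind was used, with the brightest probe set standing for its gene. The 3 groups were fitted together with limma 3.58.1 (R 4.3.3, trended moderation), with the Benjamini-Hochberg adjustment taken across 18193 genes and a threshold of 0.05. The code was tested on simulated data. A probe set at or below the highest Bacillus control on every array of a group was given as a bound only.

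The 10 genes and all lists were chosen with earlier results of these data known. All 10 genes were described. In each list and comparison, up to 3 genes past the threshold with the largest absolute difference and groups that did not overlap were named. Also named were the defining genes of the marker lists and the 10 genes most correlated with the mean profile of the set. The latter came from genes spanning at least 2 on the log2 scale. Clone names were passed over there, and so were names that open with a capital letter followed by a digit. Chosen after their values were seen were further relatives given by their range and genes that make up a count of 5 or fewer. With 2 arrays in each group, the number of arrays limits the precision. Alternatives covered quantile normalisation, median centring, the mean of all probe sets, every probe set as a row, dim genes left out, no trend, robust moderation, array weights, only the compared groups, a replicate block and each array left out. Raising each reading to the reference of its array was added after seeing the data.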

Additional observations from a re-analysis of the deposited data

How the results depend on the processing

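The direction of every called gene of the set was kept under each alternative run. The number of the 10 genes called ranged from 5 to 9 for Hb9 minus Thy1 when each array was left out. For Drd4 minus Thy1 it was 8, with a range of 7 to 8 when each array was left out, 9 with the mean of all probe sets and 5 with robust moderation. For Hb9 minus Drd4 it was 1, became 2 with array weights, and ranged from 0 to 6 when each array was left out. Of the other vessel list genes, 36 passed in Hb9 minus Thy1, and between 16 and 40 did so when each array was left out. The causes were not tested.

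Deviations of same-numbered arrays from their group means had correlations of -0.28 for Hb9 and Drd4, -0.19 for Hb9 and Thy1 and 0.37 for Drd4 and Thy1. The sign differed between the pairs of groups. With 2 arrays in each group, these values cannot settle whether the replicate numbers pair the arrays. With the replicate number as a block, 7, 8 and 2 of the 10 genes were called in Hb9 minus Thy1, Drd4 minus Thy1 and Hb9 minus Drd4, and 34, 41 and 13 of the other vessel list genes, beside 36, 41 and 10 without it. Signal near the bacterial controls limits Aspn and Kcnj8 in both lines, and 7 of the 10 genes on Drd4 replicate 2. Tagln and Cspg4 read above the controls but close to them in both lines. The reference of Drd4 replicate 2 equals 47.5% and 44.7% of their Thy1 means.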
